A study of Homo sapiens with 4 samples.

Results

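The Wnt signalling genes WNT5A, WNT5B, LEF1, TCF7, TCF7L2, DKK1, DKK3, AXIN2, FZD6 and FZD7 were followed in MDA-MB-231, an established human breast carcinoma line of the mesenchymal-like, triple-negative type, after knockdown of ZEB2. Every probe set of the Affymetrix U133 Plus 2 array that carried exactly 1 gene symbol, that of a member, was taken. This gave 29 probe sets for 9 of the 10 genes, among 19775 genes with such a probe set. Expression of TCF7 was not analysed here. The 4 groups had 1 array each. Cells stably transduced with the lentiviral vector pLVTH as control (shRNA control) were compared with cells stably transduced with an shRNA against ZEB2 (shRNA knockdown). Cells transfected with 20 nM siRNA against luciferase (siRNA control) were compared with cells transfected with 20 nM of an siRNA pool against ZEB2 (siRNA knockdown). Transfected cells were washed at 24 hours, and their RNA was taken 48 hours later. Whether the transduced cells were 1 clone or a pool is not given in the sources used here.

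Wnt ligands are secreted lipid-modified glycoproteins that bind Frizzled (FZD) receptors. In the canonical branch the signal stabilises beta-catenin, which joins the DNA-bound TCF/LEF factors and turns on target genes, among them feedback inhibitors. WNT5A and WNT5B act mainly through branches that do not use beta-catenin and are known for their part in cell movement and polarity, and Dickkopf (DKK) proteins are secreted antagonists or relatives of such antagonists. ZEB2 is a zinc-finger repressor of transcription that promotes epithelial-mesenchymal transition.

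Values are RMA log2 values as deposited, on which 1 unit is 2-fold, and differences are knockdown minus control. They rank no gene against another, because each probe set has its own response. A gene was read from its brightest probe set, and all 9 genes reached the filter level of 4.77 on at least 1 array. Of the 29 probe sets, 22 did so. WNT5A passed only through the 3 arrays on which it was higher. The shRNA arrays are called the stable pair and the siRNA arrays the transient pair. With 1 array per group, neither pair has replicates to set a difference against. In bulk RNA, fewer cells with a transcript and less transcript per cell cannot be told apart. Array medians lay between 5.34 and 5.37. ZEB2 (203603_s_at) read 6.12 on the shRNA control and 3.52 on the shRNA knockdown, and 6.56 and 3.51 on the siRNA control and knockdown. It was lower on both arrays labelled as knockdowns, where it lay under the filter level. ZEB2 probe set 228333_at differed by -1.33 in the stable pair and -1.50 in the transient pair. Probe sets 233033_at, 233031_at and 235593_at reached the filter level on no array. They differed by between 0.03 and 0.13 in the stable pair and between -0.08 and 0.42 in the transient pair. Of the line's markers, all 6 looked for (VIM, CD44, EGFR, CAV1, KRT18 and KRT8) were bright, between 10.59 and 14.12. Of the 3 receptor genes low in this line, PGR was under the filter level on every array, ESR1 lay between 6.08 and 6.54 and ERBB2 between 7.83 and 7.97. Of markers of other cells, PTPRC, COL3A1 and CDH5 never reached the filter level. The other 6 measured reached it on all 4 arrays: CD3E between 5.17 and 5.52, COL1A1 between 7.03 and 7.63, DCN between 5.48 and 5.72, PDGFRB between 5.78 and 6.70, PECAM1 between 5.72 and 6.98, and VWF between 4.86 and 5.53. The summed log2 values on the 4 arrays lay between 8.62 and 9.39 for 2 leukocyte, between 23.3 and 24.1 for 4 fibroblast and between 14.1 and 16.1 for 3 endothelial markers. The part of the dimmer endothelial sum of the shRNA knockdown in the results was not tested.

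Of the 9 genes, WNT5A was higher and LEF1 lower by at least 2-fold in the stable knockdown, and no member reached 2-fold in the transient one. Over all 15082 genes kept, 4.47% were at 2-fold in the stable pair, 2.39% higher and 2.08% lower, and 0.172% in the transient pair, 0.0464% higher and 0.126% lower. The members were chosen with results of these arrays known, so their 2 of 9 is a description. Between the 2 controls, neither of which was lowered in ZEB2, WNT5A, LEF1 and FZD6 differed by at least 2-fold, 3 of 9 against 15.8% of all genes (10.8% higher and 4.99% lower on the siRNA control). The median difference of the members was -0.29 in the stable pair, 0.22 in the transient pair and 0.13 between the controls (siRNA control minus shRNA control). All genes had medians of -0.02, -0.02 and 0.06. At 1.5-fold there were 3 members in the stable pair, where DKK3 joined WNT5A and LEF1 (14.7% of all genes), 0 in the transient pair (2.2%) and 5 between the controls (34%).

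**Figure D1:**
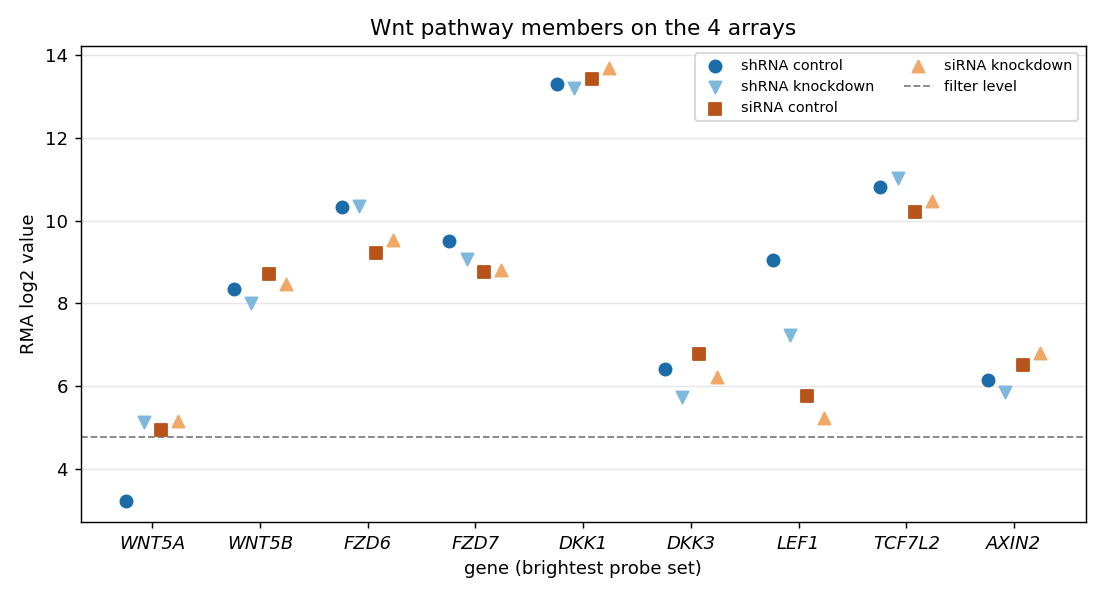
RMA log2 value (vertical axis) of the brightest probe set of each of the 9 members (horizontal axis) on the shRNA control, shRNA knockdown, siRNA control and siRNA knockdown arrays, 1 point per array, with the filter level of 4.77 dashed. WNT5A lies at 3.23 on the shRNA control and between 4.93 and 5.14 elsewhere, and LEF1 steps down from 9.05 to 5.23.

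Among the ligands, WNT5A stood out by a single low array. WNT5A (205990_s_at) read 3.23 on the shRNA control, 5.12 on the shRNA knockdown, 4.93 on the siRNA control and 5.14 on the siRNA knockdown. The shRNA control lay under the filter level, and the other 3 arrays lay within 0.22 of each other, just above it. The difference was 1.89 in the stable pair and 0.22 in the transient pair. With the shRNA control under the filter level, neither the size of the former nor its place past 2-fold is well measured. The siRNA control exceeded the shRNA control by 1.70, so control cultures that kept ZEB2 differed about as much as the stable pair did. Set against the siRNA control, the shRNA knockdown differed by 0.19. The other WNT5A probe set, 213425_at, stayed under the filter level on every array, at 3.03, 3.92, 4.37 and 3.85 in the same order of arrays. It was again lowest on the shRNA control, with differences of 0.89 in the stable pair and -0.53 in the transient pair. The sign of WNT5A in the transient knockdown thus depended on the probe set, and the mean of both gave -0.15.

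WNT5B, the close paralog of WNT5A, did not share this pattern of levels. WNT5B (221029_s_at) read 8.35, 8.002, 8.72 and 8.47 on the shRNA control, shRNA knockdown, siRNA control and siRNA knockdown. Each knockdown was lower than its own control, by 0.34 and 0.25, and these differences were no larger than the 0.38 between the controls. The other 2 probe sets were also lower in both knockdowns, by 0.14 and 0.46 in the stable pair and by 0.07 and 0.10 in the transient pair. All 3 WNT5B probe sets therefore had the same sign in both pairs, with sizes short of 1.5-fold. Of them, 230299_s_at, lower by 0.46 and 0.10, reached the filter level on no array.

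The receptors FZD6 and FZD7 differed more between the control cultures than within either pair. FZD6, a Frizzled receptor known for planar cell polarity, read 10.33 and 10.36 on the shRNA arrays and 9.21 and 9.53 on the siRNA arrays. Both shRNA arrays lay above both siRNA arrays. The pair differences were 0.03 and 0.32, against -1.12 between the controls. FZD7, a Frizzled receptor that is often abundant in basal-like breast cancer, read 9.50 and 9.07 on the shRNA control and knockdown and 8.75 and 8.82 on the siRNA control and knockdown (203706_s_at). It differed by -0.43 in the stable pair and 0.07 in the transient pair, and its second probe set by -0.15 and 0.11. Between the controls the FZD7 probe sets differed by -0.75 and -0.80, again with both shRNA arrays above both siRNA arrays.

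The Dickkopf genes had opposite signs in the transient pair and unlike sizes in the stable one. DKK1, an antagonist that binds the co-receptors LRP5 and LRP6, was bright on every array at 13.30, 13.21, 13.42 and 13.70 in the same order. Its differences were -0.09 in the stable pair, 0.28 in the transient pair and 0.13 between the controls, and the siRNA knockdown was its highest array. DKK3, a secreted relative of DKK1 whose bond to Wnt signalling is less direct, read 6.42 on the shRNA control and 5.74 on the shRNA knockdown, and 6.77 on the siRNA control and 6.21 on the siRNA knockdown (214247_s_at). Each knockdown array lay below both control arrays. The differences were -0.68 and -0.56, or 1.60-fold and 1.47-fold lower, and larger than the 0.35 between the controls. DKK3 ranked 768th lowest of 15082 genes in the stable pair and 268th lowest in the transient pair. Only this DKK3 probe set reached the filter level. The 5 under it differed by between -0.57 and 0.12 in the stable pair and by between -0.73 and -0.09 in the transient pair, so all 6 were lower in the transient knockdown and 3 of 6 in the stable one. The mean of the 6 probe sets gave -0.20 in the stable pair and -0.35 in the transient pair.

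The TCF/LEF factors gave the widest range of any member. LEF1 (221558_s_at), a DNA-binding partner of beta-catenin, read 9.05 on the shRNA control, 7.22 on the shRNA knockdown, 5.76 on the siRNA control and 5.23 on the siRNA knockdown. It was lower in each knockdown than in its own control, by 1.82 in the stable pair (3.53-fold, the 55th lowest of 15082 genes) and by 0.54 in the transient pair (1.45-fold). The control cultures stood further apart than either pair: the siRNA control was lower than the shRNA control by 3.28, or 9.72-fold, the 19th lowest of 15082 genes. Set against the siRNA control, the shRNA knockdown was higher by 1.46, so the direction of LEF1 in the stable knockdown rested on the choice of control. The LEF1 probe sets did not give 1 answer. Probe set 210948_s_at read 5.34, 4.55, 4.36 and 3.51 in the same order of arrays, with differences of -0.79 and -0.85, and only its shRNA control value reached the filter level. Probe set 221557_s_at read between 4.86 and 5.34, close to the filter level, and differed by 0.48 and 0.09. The mean of the 3 probe sets gave -0.71 in the stable pair, short of 2-fold, and -0.43 in the transient pair.

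TCF7L2, the TCF factor with most probe sets here, differed little within the pairs. TCF7L2 (212761_at) read 10.81 on the shRNA control, 11.03 on the shRNA knockdown, 10.20 on the siRNA control and 10.47 on the siRNA knockdown. It was higher in each knockdown by 0.21 and 0.27. Its 7 probe sets lay between -0.18 and 0.24 in the stable pair, 4 of them higher, and between -0.04 and 0.40 in the transient pair, 6 of them higher. All 7 were lower on the siRNA control than on the shRNA control, but by unequal amounts. Probe sets 212762_s_at and 212759_s_at differed by -1.56 and -1.73 between the controls, and the other 5 by between -0.61 and -0.07. TCF7L2 has many splice forms, and which of them each probe set reads was not analysed here.

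**Figure D2:**
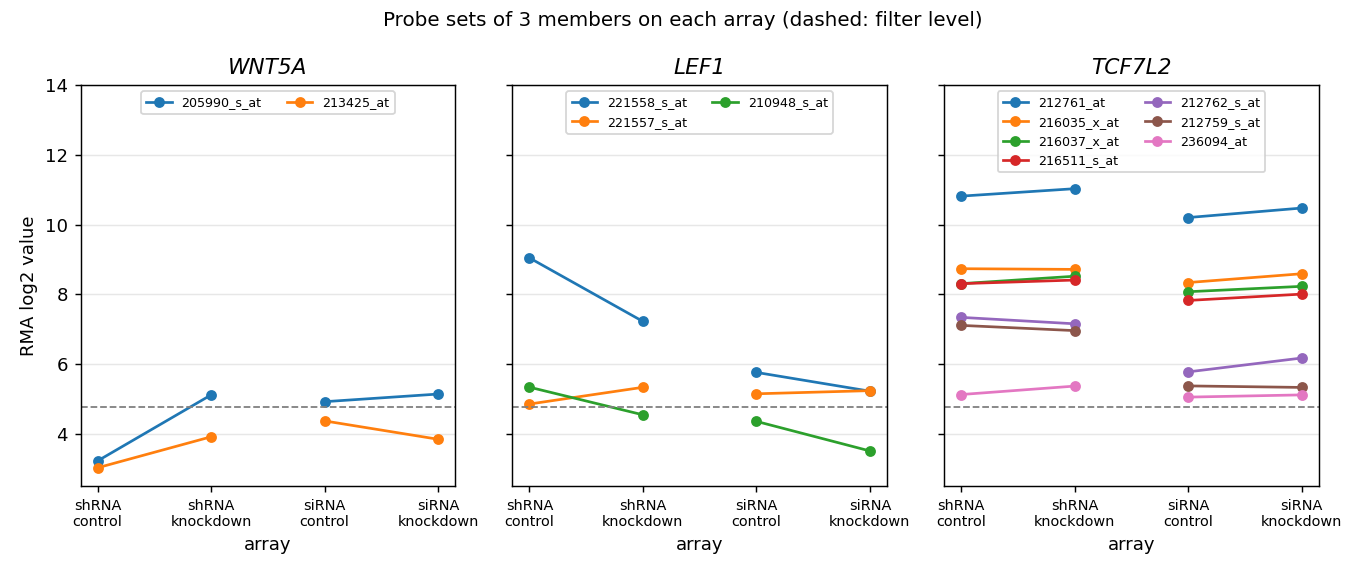
RMA log2 value (vertical axis) of each probe set of WNT5A, LEF1 and TCF7L2 on the 4 arrays (horizontal axis), with a line joining each control to its knockdown and the filter level of 4.77 dashed. The LEF1 lines differ in slope, from -1.82 to 0.48 in the stable pair, and 2 of the 7 TCF7L2 probe sets drop by over 1.5 between the controls.

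AXIN2, a scaffold of the beta-catenin destruction complex and a widely used readout of canonical signalling, had no common direction. AXIN2 (222696_at) read 6.15 and 5.86 on the shRNA control and knockdown and 6.51 and 6.80 on the siRNA control and knockdown. The differences were -0.29 and 0.29, opposite in sign and smaller than the 0.36 between the controls. All 4 AXIN2 probe sets were lower in the stable knockdown, by between 0.02 and 0.29, while 3 of 4 were higher in the transient one, where they lay between -0.45 and 0.29.

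**Figure D3:**
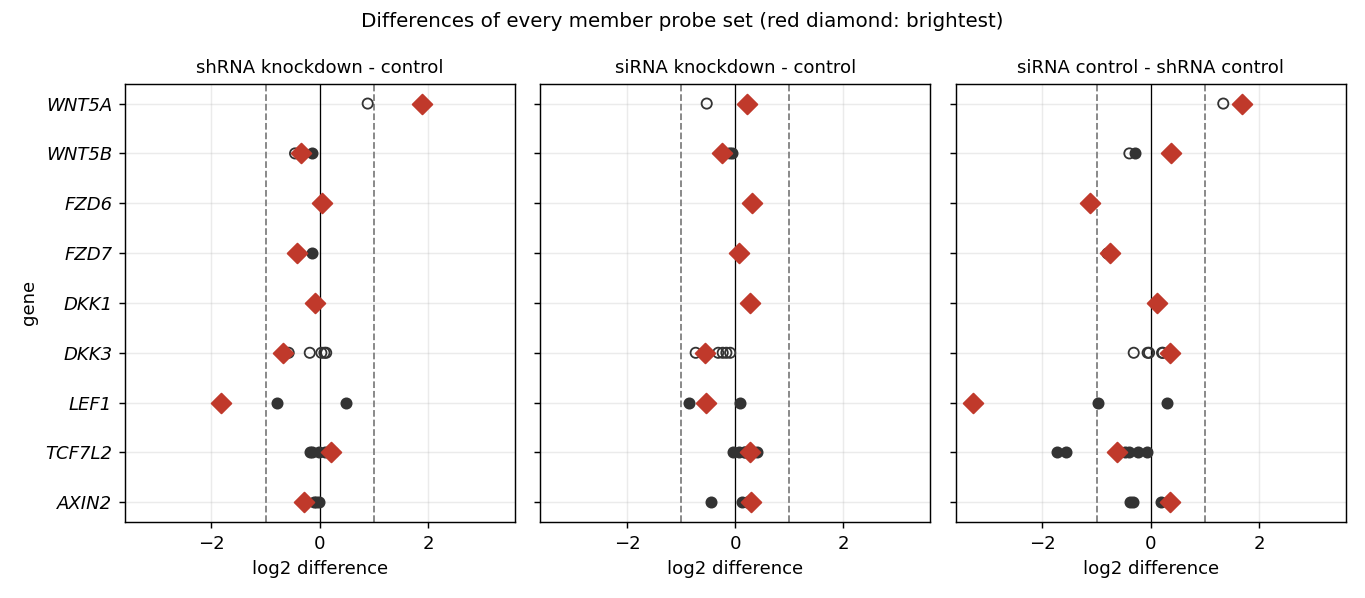
Log2 differences (horizontal axis) of all 29 probe sets of the 9 members (vertical axis) in the stable pair, in the transient pair and between the controls, with the brightest probe set of each gene as a red diamond, other probe sets that reach the filter level filled and the rest open. Dashed lines mark 2-fold, which 2 probe sets pass in the stable pair, 0 in the transient pair and 6 between the controls.

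A common knockdown effect over both methods was tested with limma on all 15082 genes, with the method as a block. A gene's own residual error had only 1 degree of freedom and came from how unlike its differences in the 2 pairs were. The eBayes step then moderated that error with an intensity trend over all genes tested, so the SEs and p-values do not rest on it alone. With 1 array per group, spread between methods cannot be told apart from spread between cultures or arrays. The p-values therefore give no measure of replicate spread. No gene passed an adjusted p of 0.05 (0%), the smallest being 0.971, and 384 genes had an unadjusted p under 0.05 in limma. DKK3 had a mean difference of -0.62 ± 0.15 (SE), lower in 2 of 2 pairs, with an unadjusted p of 0.0158 and an adjusted p of 0.971 in limma. LEF1 had -1.18 ± 0.36, also lower in 2 of 2 pairs, with 0.0326 and 0.971. Its probe set 221557_s_at was higher in both pairs, by 0.48 and 0.09, and averaging the LEF1 probe sets gave a mean difference of -0.57. WNT5A, higher in 2 of 2 pairs, had 1.05 ± 0.45 with 0.0808 and 0.971. That mean joins 1.89 in the stable pair, whose control lay under the filter level, with 0.22 in the transient pair. The other WNT5A probe set differed by -0.53 in the transient pair. Signs given beside the limma values are those of each gene's brightest probe set. The other 6 members had mean differences between -0.30 and 0.24 and unadjusted p-values between 0.153 and 0.995 in limma. ZEB2 itself, with -2.82 ± 0.18, lower in 2 of 2 pairs, had an adjusted p of 0.971 in limma too. Both ZEB2 knockdown values lay under the filter level, so the size of that difference is not well measured.

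Promoter windows of the members were then read from the RefSeq table (GRCh38.p14), each with 250 bases before and 50 after a start site. Of the 10 members, 6 had at least 1 window, 11 in all, of which 2 belong to TCF7. DKK3, AXIN2, FZD6 and FZD7 had none. The windows of WNT5A and LEF1 are printed because these members differed by 2-fold in the stable pair, and that of DKK1 because it alone held CTTTGA. Both strands were searched for CACCT, the core to which ZEB zinc fingers bind, and for CTTTGA and CTTTGT, cores of TCF/LEF sites. The longer E-box CACCTG contains CACCT, so the searches overlap. Capitals mark the ZEB core and both TCF/LEF cores, on either strand, as they appear on the strand printed. All 4 run 5′ to 3′ on the strand of the gene.
WNT5A, chr3:55487257-55487556, minus strand: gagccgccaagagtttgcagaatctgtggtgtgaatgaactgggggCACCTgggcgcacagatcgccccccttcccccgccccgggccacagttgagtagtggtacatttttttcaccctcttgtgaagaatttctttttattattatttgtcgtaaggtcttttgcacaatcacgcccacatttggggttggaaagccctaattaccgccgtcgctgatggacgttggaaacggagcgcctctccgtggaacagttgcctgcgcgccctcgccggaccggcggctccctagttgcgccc
WNT5A, chr3:55481349-55481648, minus strand: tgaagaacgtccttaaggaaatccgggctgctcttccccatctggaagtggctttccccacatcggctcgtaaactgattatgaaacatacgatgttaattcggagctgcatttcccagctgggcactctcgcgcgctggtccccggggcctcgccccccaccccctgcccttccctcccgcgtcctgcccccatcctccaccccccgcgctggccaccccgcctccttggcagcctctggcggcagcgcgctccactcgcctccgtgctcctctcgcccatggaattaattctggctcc
LEF1, chr4:108166252-108166551, minus strand: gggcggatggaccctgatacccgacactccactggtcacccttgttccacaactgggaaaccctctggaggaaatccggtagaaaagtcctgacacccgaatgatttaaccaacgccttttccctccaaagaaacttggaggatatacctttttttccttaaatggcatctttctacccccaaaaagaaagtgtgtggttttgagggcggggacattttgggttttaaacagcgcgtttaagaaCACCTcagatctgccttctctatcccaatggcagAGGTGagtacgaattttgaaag
DKK1, chr10:52314031-52314330, plus strand: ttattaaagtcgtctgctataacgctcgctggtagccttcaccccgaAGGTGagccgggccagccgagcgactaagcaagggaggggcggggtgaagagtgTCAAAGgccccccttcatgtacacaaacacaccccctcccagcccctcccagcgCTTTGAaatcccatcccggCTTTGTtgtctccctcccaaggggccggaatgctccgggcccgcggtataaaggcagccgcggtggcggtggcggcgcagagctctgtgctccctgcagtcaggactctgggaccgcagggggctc

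The first WNT5A window held 1 CACCT, which was also a CACCTG, and the second held no searched motif. The LEF1 window held 2 CACCT and no CACCTG. The DKK1 window held 1 CACCT, 2 CTTTGA and 1 CTTTGT. Over the members, 7 of 11 windows held CACCT, against 51.6% of 35116 windows in the table. CACCTG was in 3 of 11 (2 of them of TCF7), against 20.6%, CTTTGA in 1 against 12.9% and CTTTGT in 3 against 16.1%. A match of letters is a description and not a site.

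By distance between log2 values centred on each gene's mean over the 4 arrays, the genes most like LEF1, the member with the widest range, were XK, SPRY1, RGS4, ENPP1 and ADIRF, at distances of 0.28, 0.29, 0.43, 0.46 and 0.48. SPRY1 read 8.91, 7.43, 5.87 and 5.46 on the shRNA control, shRNA knockdown, siRNA control and siRNA knockdown, and XK read 8.31, 6.60, 4.79 and 4.31. In all 5 genes the shRNA control was highest and the shRNA knockdown second, above both siRNA arrays. The siRNA knockdown was lowest in 4 of them. In ADIRF it lay above the siRNA control, at 5.40 against 5.35. They were picked for this likeness, so it carries no test.

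The rest of the pathway was read from 8 lists holding 105 genes, of which 100 were measured and 81 kept. In the stable pair 3 of the 81 were at 2-fold, 1 higher and 2 lower. In the transient pair 1 was, lower, and between the controls 10 were, 6 higher and 4 lower, against the 4.47%, 0.172% and 15.8% of all genes. Their median differences were -0.003, -0.003 and 0.05. With limma, 0 of the 81 passed in either direction.

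Among 14 further ligands, NDP alone reached 2-fold. NDP encodes norrin, a non-Wnt ligand of FZD4. NDP read 7.43 and 5.51 on the shRNA control and knockdown and 6.04 and 4.93 on the siRNA control and knockdown. It was lower by 1.92 and 1.11 in the pairs and by 1.39 on the siRNA control than on the shRNA control. Its limma mean difference was -1.52 ± 0.25, lower in 2 of 2 pairs, with an unadjusted p of 0.00436 and an adjusted p of 0.971. FZD4, the receptor of norrin, differed by -0.05 and -0.62 in the pairs and by 1.31 between the controls, where its other probe set differed by 0.11. WLS, which carries Wnt proteins to the cell surface, differed by -0.43 and -0.36 in the pairs and by -0.01 between the controls. Its 3 probe sets lay between -0.43 and 0.18 in the stable pair, where only the brightest was lower. They lay between -1.03 and -0.30 in the transient pair and between -1.23 and -0.01 between the controls.

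Of the 13 further receptors and co-receptors, LRP5, the co-receptor that DKK1 binds, was lower by 1.002 in the stable pair and higher by 0.16 in the transient pair. It read 7.72 on the shRNA control, 6.72 on the shRNA knockdown, 5.94 on the siRNA control and 6.10 on the siRNA knockdown, with the siRNA control lower than the shRNA control by 1.78. Its second probe set differed by -0.07 in the stable pair and -0.24 between the controls. FZD1 read 8.56, 7.73, 7.05 and 6.69 in the same order, lower by 0.83 and 0.35 in the pairs and by 1.51 between the controls. Like LEF1, FZD1 was highest on the shRNA control and lowest on the siRNA knockdown.

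In the lists of cytoplasmic relay and nuclear partner genes, as over all genes, the larger differences lay between the controls. Of the 19 genes of the cytoplasmic relay and feedback, 0 were at 2-fold in either pair. Between the controls 15 of the 19 were higher on the siRNA control, against 8138 of all 15082 genes, with a median of 0.41 against 0.06. At 2-fold there were 2 of the 19, against 15.8% of all genes. DVL2, a Dishevelled relay protein, differed by 0.43 and -0.19 in the pairs and by 1.33 between the controls, and APC, a destruction complex scaffold, by 0.39, 0.19 and 1.11. The 5 probe sets of APC disagreed, spanning -1.74 to 1.11 between the controls, and the other probe set of DVL2 differed there by 0.16. Of the 10 nuclear partners, BCL9L, a coactivator of beta-catenin, differed by 0.15 and 0.12 in the pairs and by -1.48 between the controls. Of the 10 target genes 0 were at 2-fold in any comparison. At 1.5-fold there were 3 target genes in the stable pair, 2 in the transient pair and 1 between the controls. Of all genes, 14.7%, 2.2% and 34% were. ID2, which blocks DNA binding of helix-loop-helix factors, had the largest mean absolute difference over the pairs, at -0.89 and 0.82. It differed by 0.27 between the controls, and its shRNA knockdown value of 4.44 lay under the filter level.

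Of the 6 further secreted modulators kept, SFRP1, a secreted Frizzled-like antagonist, differed by 0.51 and -0.53 in the pairs and by 1.24 between the controls, and read 4.07 and 4.58, under the filter level, on the shRNA arrays. Its 4 probe sets spanned 0.05 to 1.24 between the controls. Of the list's 17 genes, 11 reached the filter level on no array. Of the 8 planar polarity genes, DAAM1, a formin that links Dishevelled to actin, was higher by 1.08 in the stable pair and by 0.52 in the transient pair. DAAM1 read 8.07, 9.15, 8.65 and 9.17 in the same order (216060_s_at), with both knockdown arrays above both control arrays. The controls differed there by 0.58, more than the transient pair did. In 226666_at, 232552_at and 244062_at the shRNA knockdown lay below the siRNA control, and in 226666_at the controls differed by 1.29. The 5 DAAM1 probe sets lay between 0.15 and 1.08 in the stable pair and between 0.03 and 0.52 in the transient pair. PRICKLE2 and CELSR3 differed by 1.17 and 1.14 between the controls and by at most 0.37 in size within the pairs.

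**Figure D4:**
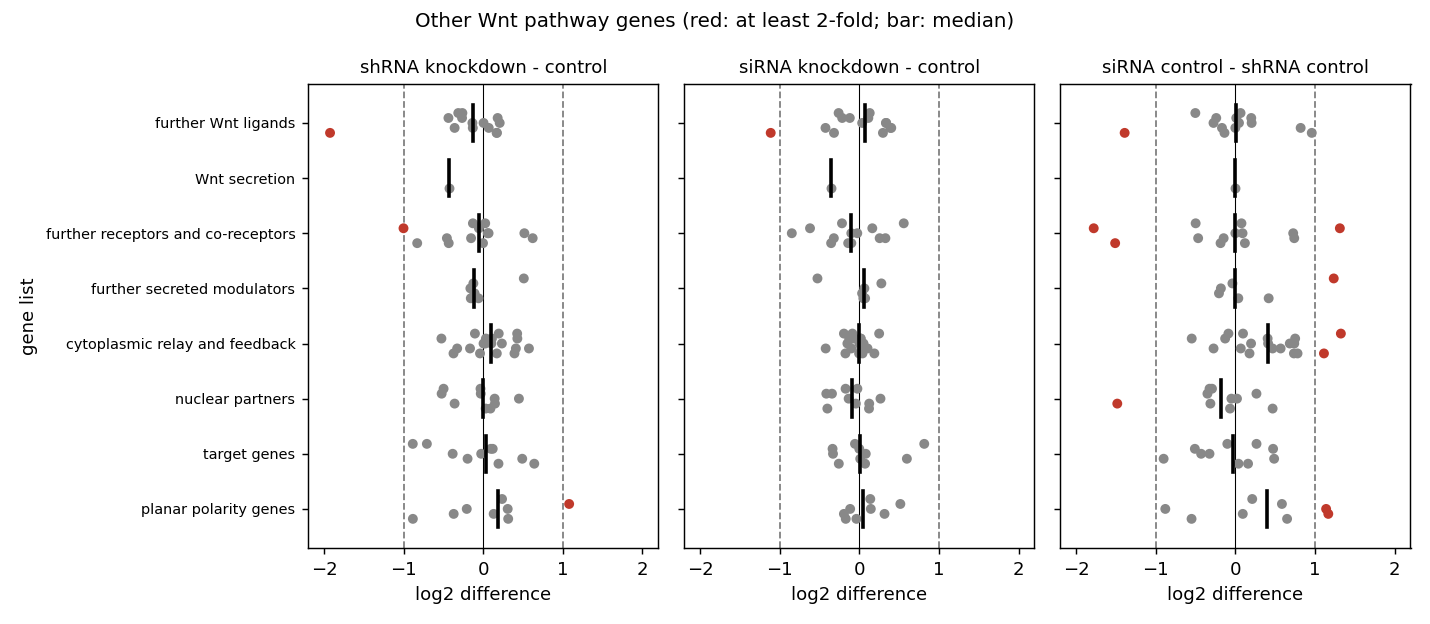
Log2 differences (horizontal axis) of the 81 kept genes of 8 Wnt pathway lists (vertical axis) in the stable pair, in the transient pair and between the controls, 1 point per gene, red at 2-fold or more, with a bar at each list's median. In the pairs 3 and 1 genes are red, and 10 between the controls.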

How the data were processed

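The authors deposited log2 values for each probe set. Per the submitters' processing notes, the tools were RMA and affy, without versions. RMA gives the arrays a common distribution, which hides a change in total RNA, and compresses differences of dim genes. Columns of other series numbered 0.

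Of 54675 probe sets, 41097 carried 1 symbol in the platform annotation, 1801 several and 11777 none in the table used here. All 9 member symbols matched RefSeq by gene identifier. A gene was read from the probe set with the highest mean and kept where its highest value reached the 40th percentile of all values, 4.77, which left 15082 of 19775 genes. Called means at least 2-fold, with no test in a pair. The common effect was tested with limma 3.58.1 in R 4.3.3 (lmFit, eBayes with an intensity trend, 2-sided, Benjamini-Hochberg adjustment over all genes kept, method as a block). The step was also run on simulated data with the same noise for every gene, its SD taken from the siRNA pair. The SD of differences over genes was 0.235 in that pair and 0.499 in the shRNA pair. The simulation therefore does not show what limma recovers on these arrays. Figures used matplotlib 3.10.9 in Python 3.11.15.

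The members, the 8 lists of pathway genes and the marker lists were chosen with earlier results of these data known. Named were ZEB2, every member, from each list the kept genes at 2-fold in a pair or between the controls (otherwise the gene with the largest mean absolute difference over the pairs), and the 5 genes nearest to the member with the widest range. The alternatives tried were averaging a gene's probe sets, no cross-hybridising probe sets, median centring, quantile and cyclic loess normalization, the other control, no filter or the 60th percentile, 1.5-fold and 3-fold, and no method block or no trend.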

Additional observations from a re-analysis of the deposited data

Results flagged for a closer look

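Given here are the members and the named pathway genes whose differences had opposite signs in the 2 pairs. Kept list genes that the naming rule left out had opposite signs too, among them FZD3 (0.52 and -0.85), MYC (0.64 and -0.26) and TNKS (0.41 and -0.42). The share of all genes with opposite signs was not computed. With 1 array per group the gap between the pairs was not tested for any of them. Of the members, DKK1 differed by -0.09 in the stable pair and 0.28 in the transient pair, AXIN2 by -0.29 and 0.29, and FZD7 by -0.43 and 0.07. Of the other pathway genes named, LRP5 differed by -1.002 and 0.16, SFRP1 by 0.51 and -0.53, DVL2 by 0.43 and -0.19, CELSR3 by 0.31 and -0.12, and ID2 by -0.89 and 0.82. Not every probe set had opposite signs. The other probe set of DVL2 differed by -0.11 and -0.53 and that of CELSR3 by 0.49 and 0.18, each with 1 sign throughout, and 1 of 4 AXIN2 probe sets differed by -0.11 and -0.45. Of the other 3 SFRP1 probe sets, 1 reached the filter level, at 0.36 and -0.03.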

How the results depend on the processing

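Single values of the members were recomputed under 213 combinations of value and alternative, of which 186 moved by less than 0.235, the SD of the siRNA differences over all genes (standing in for a replicate spread) or, in limma, kept sign and side. Many of them could not move, so 186 of 213 is no measure of robustness. No brightest member probe set was a cross-hybridising one, and DKK1 and FZD6 have 1 probe set each. Filter, block and trend settings leave a limma mean difference unchanged. In limma 0 genes passed in every setting, so keeping side carries no information. LEF1 counted as kept in limma though averaging took its mean difference from -1.18 to -0.57. Sign changed in 11 of the 213: 6 with the other control (FZD7 in both pairs, LEF1 in the stable pair, and WNT5B, TCF7L2 and FZD6 in the transient pair), 3 with the mean of all probe sets (WNT5A in the transient pair, WNT5B and AXIN2 between the controls) and 2 in limma. Of values at 2-fold, LEF1 alone did so, to 1.46 in the stable pair against the siRNA control. Against that control the shRNA knockdown differed by -1.03 in DKK3, 1.16 in FZD6 and 0.19 in WNT5A. The limma mean difference of AXIN2, -0.001 in the values as deposited, turned to 0.019 with quantile and 0.015 with cyclic loess normalization; for AXIN2 the cause was not tested. With the mean of all probe sets, 1 member (WNT5A, whose mean reached the filter level on no array) and 1 list gene (NDP) were at 2-fold in the stable pair. Against the shRNA control, the siRNA knockdown differed by 1.91 in WNT5A and -3.82 in LEF1. List genes past 1.5-fold numbered 9 in the stable pair, 5 in the transient pair and 22 between the controls. Of all genes, 14.7%, 2.2% and 34% did so. Past 3-fold the list genes numbered 1, 0 and 1. Shares of all genes were not computed past 3-fold, with averaged probe sets or with the other control, so counts there are descriptions only. Averaging left WNT5A and DKK3 out of limma, and the 60th percentile left out WNT5A. With limma 0 genes passed under every alternative run, with a smallest adjusted p between 0.305 and 1 and between 40 and 516 genes at an unadjusted p under 0.05. The method block, which pairs each knockdown with its own control, is in the limma fit as reported, and without it 0 genes passed too. Pairing by replicate number does not arise, since each group has 1 array.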
